A study of Mus musculus with 9 samples.

Results

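Perigonadal white adipose tissue of G609G/G609G mice was compared with that of wild-type (wt) mice on Affymetrix exon arrays summarised to 1 value per gene. The comparison used 6 of the 9 arrays analysed here: 3 titled G609G/G609G and 3 titled wt, all from mice aged 4 months. The other 3 arrays, of LCS/LCS mice of the same age and tissue, shared the fit and are given where a gene was set directly against them. All 23332 probe sets were tested, and the genes described are the 14860 that stand alone as the symbol of a probe set. G609G is an allele of Lmna, a germline change carried by every tissue of the mice, so changes that begin in fat cannot be told apart from those that follow from the state of the whole animal. The labels do not spell out LCS, and they give neither sex nor strain. The design text calls the replicates biological and counts 10 samples. Nothing states for each array that it came from its own animal, so spread between them may be technical, and that spread is all the p-values take in.

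Lamins A and C, the products of Lmna, form a meshwork under the inner nuclear membrane. The G609G allele is known to activate a cryptic splice site, which yields progerin, a shortened lamin A that keeps its farnesyl anchor, and homozygous mice serve as a model of Hutchinson-Gilford progeria with early wasting and loss of fat. White adipocytes store triglyceride and secrete leptin and adiponectin. Perigonadal fat of male mice lies against the epididymis, so tissue of the reproductive tract is a neighbour of the pad.

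All values below are log2 signals, n = 3 arrays a genotype, and a change is the G609G/G609G mean minus the wt mean with its standard error (SE). The array medians were 5.94 to 6.01 in G609G/G609G and 6.36 to 6.45 in wt. Each change was therefore also tested after quantile normalization, which makes the distributions of all arrays equal. Changes are printed as deposited unless another scaling is named. The size depends on the scale: the change of Dbp was -0.70 as deposited and -0.23 after quantile normalization, and that of Arntl 1.48 and 1.97. Calls rest on limma with Benjamini-Hochberg adjustment over all probe sets and an adjusted p of 0.05 or less. As deposited, 1560 genes (10.5%) were higher and 7944 (53.5%) lower in G609G/G609G fat, whereas after quantile normalization 4237 (28.5%) were higher and 4388 (29.5%) lower. A gene is said below to have risen or fallen only if it passed in the same direction both ways. This held for 1522 genes (10.2%) that rose and 4376 (29.4%) that fell, the shares against which all list counts below are to be read. Over all probe sets, 9.41% were higher and 43.3% lower as deposited. Quantile normalization gave 24.8% higher and 23.8% lower, and centring each array on its median gave 41.4% higher and 21.5% lower. Of the genes called both ways, 378 rises (2.54%) and 809 falls (5.44%) were at least 2-fold on both scales. All genes had a median change of -0.28 as deposited, against which list medians are to be read, while quantile normalization gave 0.02 and centring 0.14. Over all genes the median SD within a genotype was 0.11 in G609G/G609G and 0.08 in wt, so changes of 1 or more lay far outside the usual spread. It was 0.06 in LCS/LCS. The fit took 1 spread per probe set over all genotypes, so an SE can be too small where the G609G/G609G arrays scatter most. No detection calls were used, so where 1 side of a comparison is dim its signal may be background and the change understated.

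The labelled tissue was checked against markers. Adipoq and Plin1, markers of adipocytes, were bright on all arrays, with 12.29 to 12.33 for Adipoq in G609G/G609G fat and 13.06 to 13.18 in wt fat. Markers of other tissues also moved with genotype. The mean over 12 fast muscle fibre genes was 11.62 to 11.69 in G609G/G609G fat against 5.49 to 5.62 in wt fat, and the mean over 17 epididymal genes was 6.43 to 6.61 against 10.92 to 10.93. The part these tissues have in the changes of other gene groups was not tested, and in tissue RNA fewer cells of a type cannot be told apart from less RNA per cell.

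**Figure D1:**
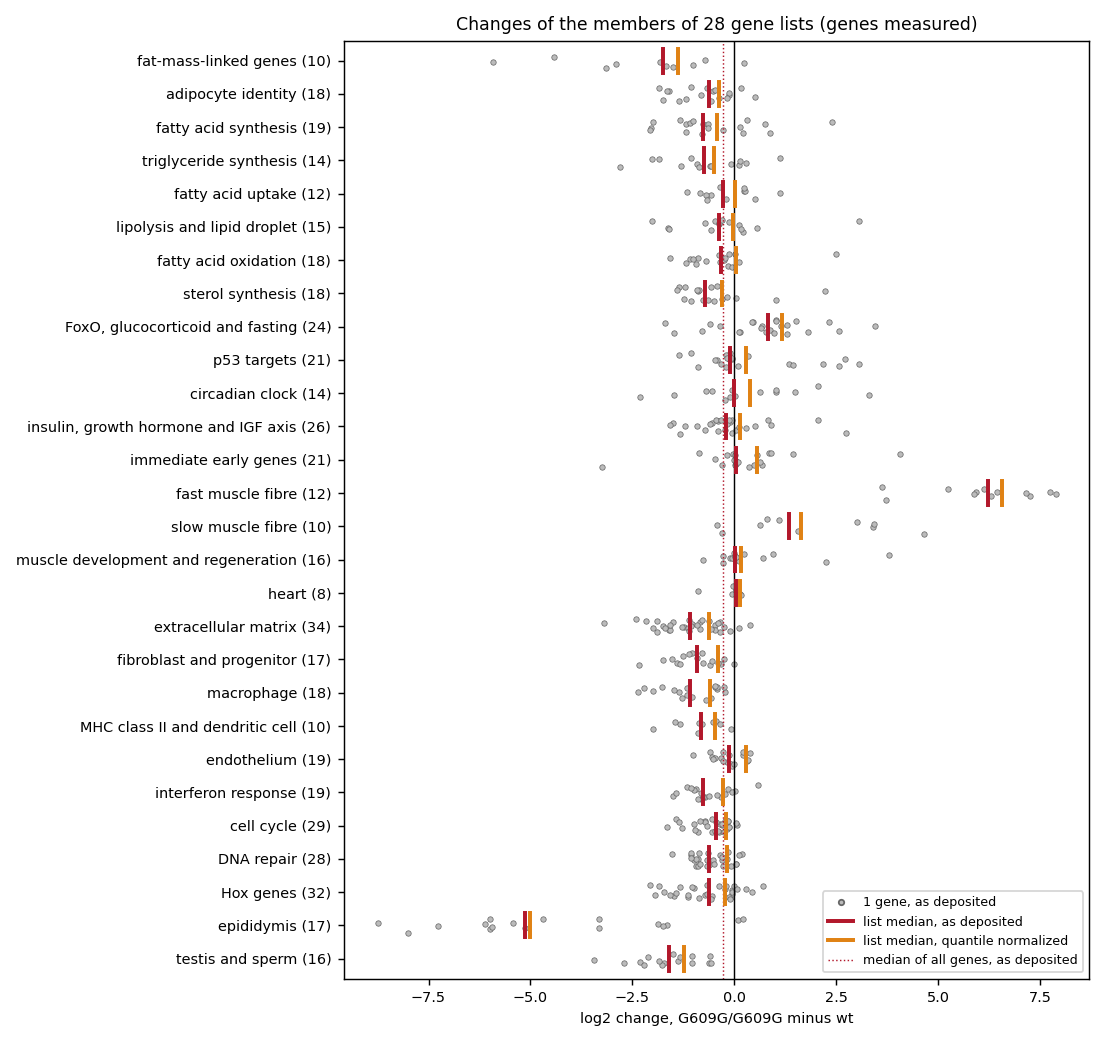
Each grey point is 1 gene, placed by its log2 change in G609G/G609G fat relative to wt fat as deposited (x axis), in rows of 28 gene lists with the number of genes measured in parentheses. The red bar is the list median as deposited, the orange bar the median after quantile normalization, and the dotted line the median of all genes as deposited (-0.28). Fast muscle fibre genes lie furthest to the right (median 6.21) and epididymal genes furthest to the left (median -5.14).

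The mutated gene itself differed little on its probe set. Lmna had 7.08, 7.27 and 7.04 in G609G/G609G fat, against 7.64, 7.57 and 7.60 in wt fat. The groups did not overlap as deposited (-0.47, SE 0.07, limma adjusted p = 0.000781), but after quantile normalization the change was 0.06 (adjusted p = 0.617). A value summarised over the whole gene does not separate progerin from lamins A and C, so it does not check the genotype labels. Zmpste24, the protease that trims prelamin A, fell by 0.69 (adjusted p = 0.000324) and changed by -0.26 after quantile normalization. Among 17 measured genes of lamins, lamin processing and the nuclear envelope, 1 rose and 4 fell (median -0.21, and 0.15 after quantile normalization). Both shares were below those of all genes (10.2% and 29.4%). The rise was that of Sun2, an inner nuclear membrane protein that links lamins to the cytoskeleton, at 9.61, 9.65 and 9.82 against 8.85, 8.80 and 8.95 in wt (0.83, adjusted p = 2.1e-05). Its outer membrane partner Syne2 fell by 0.99, and Fntb, the beta subunit of the farnesyltransferase that lipidates lamins, fell by 0.89.

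Genes whose level in fat is known to follow the size of the fat depot had the lowest median among the adipocyte and lipid lists. Lep (probe set 6944966), the gene of the satiety signal leptin, had 5.16, 5.34 and 5.45 in G609G/G609G fat and 11.25, 11.25 and 11.24 in wt fat. Every G609G/G609G array was below every wt array (log2 change -5.93, SE 0.08, adjusted p = 9.91e-10). Of 10 measured fat-mass-linked genes, 9 fell and 1 rose (median -1.74). Sfrp5, a secreted Wnt antagonist of adipocytes, had 5.44, 5.64 and 5.16 in G609G/G609G and 9.83, 9.65 and 10.01 in wt, a change of -4.42 (SE 0.13). Npr3, the clearance receptor for natriuretic peptides, fell by 3.15, and Trp53inp2, an autophagy cofactor, fell by 1.81. The exception was Vldlr, a receptor for triglyceride-rich lipoproteins, with a small rise of 0.24 (adjusted p = 0.00535) that was 0.63 after quantile normalization.

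Markers of adipocyte identity fell too, but by less. Of 18 measured genes, 14 fell and 1 rose (2 without G609G/G609G replicate 2; median -0.62), and 10 of the falls also held after centring the arrays on their medians, as did 25.5% of all genes. Plin1, the coat protein of the adipocyte lipid droplet, had 10.17, 10.27 and 10.20 in G609G/G609G fat against 11.81, 11.81 and 11.83 in wt fat (-1.60, SE 0.05, adjusted p = 9.26e-08). Rbp4, a retinol carrier secreted by fat, fell by 1.75, and Aqp7, the glycerol channel of adipocytes, fell by 1.64. Tshr, the thyrotropin receptor, fell by 1.85. Adipoq fell by 0.82 (SE 0.05), and Fabp4, the fatty acid carrier of adipocytes, fell by 0.66. Cebpa, a transcription factor of the mature adipocyte, fell by 1.19. Pparg, the factor that drives adipocyte differentiation, had 10.81, 10.83 and 10.89 against 10.97, 10.87 and 11.05 in wt, with no call as deposited (-0.12, adjusted p = 0.126) and a change of 0.23 after quantile normalization (adjusted p = 0.00471). The 1 rise was that of Slc2a4, the insulin-responsive glucose transporter, which skeletal muscle also expresses, at 9.25, 9.22 and 9.42 against 8.71, 8.70 and 8.95 in wt (0.51). Trarg1, which helps that transporter reach the cell surface of adipocytes, fell by 3.06, with 8.12, 8.05 and 8.45 in G609G/G609G fat against 11.26, 11.23 and 11.32 in wt fat.

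**Figure D2:**
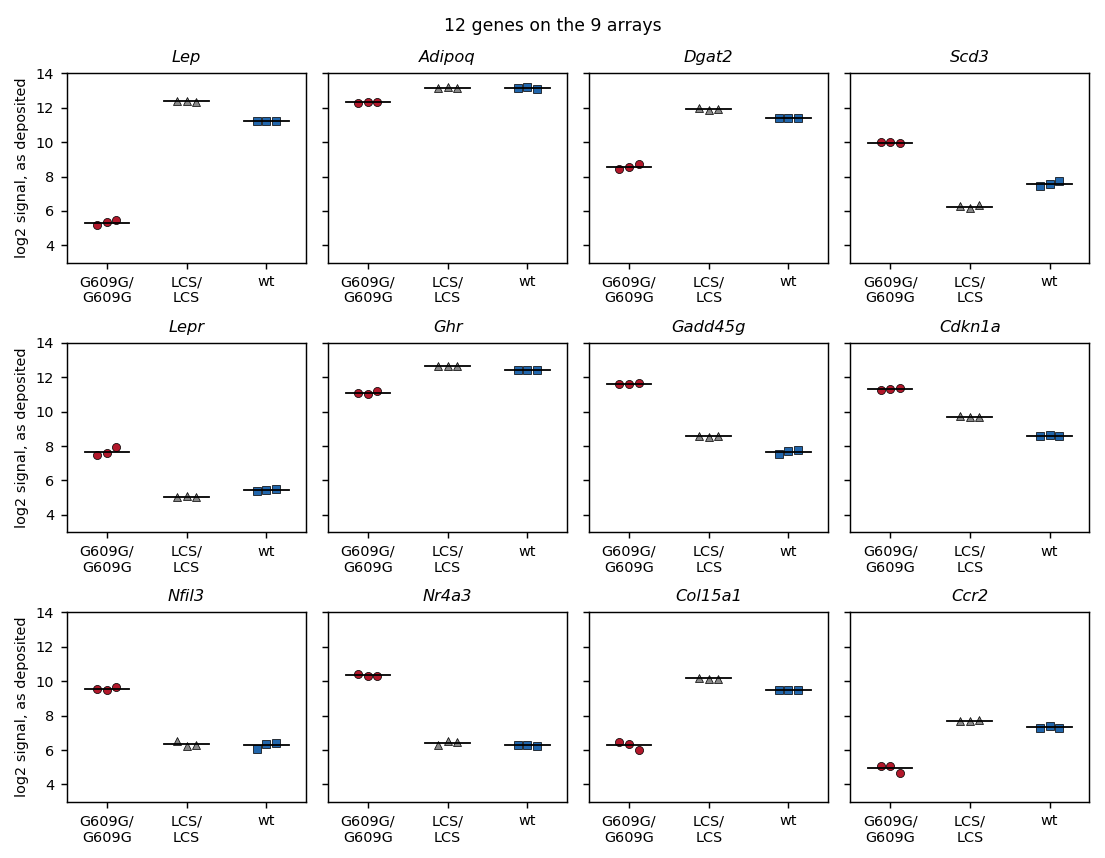
Log2 signal as deposited (y axis) of 12 genes on each of the 9 arrays, with G609G/G609G as red circles, LCS/LCS as grey triangles and wt as blue squares. Horizontal bars are group means. The red circles stand clear of both other genotypes in all 12 panels, below them for Lep, Adipoq, Dgat2, Ghr, Col15a1 and Ccr2 and above them for Scd3, Lepr, Gadd45g, Cdkn1a, Nfil3 and Nr4a3.

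Lepr, Hcar1 and Sucnr1 encode receptors and were chosen after their values were seen. Lepr, the leptin receptor, had 7.51, 7.61 and 7.92 in G609G/G609G fat against 5.40, 5.47 and 5.48 in wt fat, a rise of 2.23 (SE 0.10, adjusted p = 6.29e-07) on the arrays on which Lep itself was near the dim end of the scale. Hcar1, the lactate receptor that restrains lipolysis, had 5.89, 4.88 and 4.68 against 8.83, 8.77 and 8.78 in wt (-3.64, SE 0.27, adjusted p = 1.01e-05). The G609G/G609G arrays spread more for this gene than the wt arrays, without reaching them. Sucnr1, a receptor for succinate, fell by 3.07.

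Fatty acid and triglyceride synthesis genes mostly fell, with a few members that went the other way. Of 19 measured fatty acid synthesis genes, 13 fell and 5 rose (median -0.78). Fasn, the fatty acid synthase, had 10.40, 10.40 and 10.51 in G609G/G609G fat and 12.48, 12.44 and 12.50 in wt fat (-2.04, adjusted p = 3.75e-08). Acaca, which makes its substrate malonyl-CoA in the cytosol, fell by 1.99, Thrsp, a cofactor of lipogenesis, fell by 2.06, and Srebf1, a transcription factor that drives these enzymes, fell by 1.18. Acacb, the form of the carboxylase bound to mitochondria, rose by 0.87 instead. Scd3, one of the mouse stearoyl-CoA desaturases, showed the opposite of Fasn: 9.99, 9.98 and 9.93 against 7.46, 7.55 and 7.73 in wt, a 5.23-fold higher signal (log2 change 2.39, SE 0.08, adjusted p = 1.65e-07). Its neighbours in function Scd1 and Scd2 fell (-0.29 and -0.78), although the change of Scd1 turned to 0.14 after centring on the median. Probe sets of similar desaturase genes can share sequence, and cross-hybridisation was not tested.

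Of 14 triglyceride synthesis genes, 9 fell and 3 rose (median -0.74). Dgat2, which adds the last acyl chain of triglyceride, had 8.42, 8.56 and 8.74 in G609G/G609G fat against 11.39, 11.39 and 11.39 in wt fat (-2.82, adjusted p = 6.31e-08). Mogat1, which acylates monoacylglycerol, fell by 2.01, and Pnpla3, a lipid droplet enzyme, fell by 1.84. Dgat1, which catalyses the same last step as Dgat2, had 11.41, 11.40 and 11.47 against 11.30, 11.30 and 11.30 in wt, a change of 0.13 (adjusted p = 0.0468) whose call was lost on leaving out any 1 of the 6 arrays (changes of 0.10 to 0.14). Lpin1, the phosphatidate phosphatase and coactivator, rose by 1.12, with 12.21, 12.22 and 12.25 against 11.12, 11.06 and 11.15 in wt.

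Genes of lipid uptake, breakdown and oxidation split. Of 12 uptake genes, 5 rose and 5 fell, of 15 lipolysis and lipid droplet genes 3 rose and 7 fell, and of 18 oxidation genes 1 rose and 7 fell. Over all genes, 10.2% rose and 29.4% fell. The medians of these 3 lists after quantile normalization were 0.01, -0.03 and 0.05, close to that of all genes. G0s2, the inhibitor of the first triglyceride lipase, fell by 2.03 (adjusted p = 5.99e-07), and Mgll, which cleaves the last fatty acid from glycerol, fell by 1.62. Fitm1, a lipid droplet protein of muscle, had 7.39, 7.30 and 8.16 in G609G/G609G and 4.53, 4.43 and 4.73 in wt, while Fitm2, its form in fat, rose by 0.57. Cpt1a, which admits fatty acids to mitochondria, fell by 1.57. The single rise in the oxidation list was that of Ehhadh, the bifunctional enzyme of peroxisomal beta-oxidation, with 10.93, 10.98 and 10.99 against 8.47, 8.39 and 8.58 in wt (2.49, SE 0.06, adjusted p = 2.87e-08). Abcd2, a peroxisomal importer of very long acyl chains that was chosen after its values were seen, fell by 3.44.

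Sterol synthesis had 9 falls and 2 rises among 18 genes (median -0.71), against 29.4% and 10.2% of all genes. Nsdhl and Sqle, enzymes of the late and the squalene steps, fell (-1.40 and -1.35). Pmvk, the kinase of phosphomevalonate, rose instead, to 8.08, 7.91 and 8.14 in G609G/G609G fat against 5.79, 5.88 and 5.80 in wt fat (2.22), and Cyp51, the lanosterol demethylase, rose by 1.02. Branched-chain amino acid breakdown had 4 rises and 6 falls among 18 genes, the share that fell being near that of all genes. Of the transaminases of its first step, Bcat2, the mitochondrial one, rose by 0.82 and Bcat1, the cytosolic one, fell by 1.03. Of 20 tricarboxylic acid cycle genes 1 rose and 1 fell, and of 29 respiratory chain genes 2 rose and 2 fell. Their medians of -0.20 and -0.15 lay near the -0.28 of all genes as deposited and turned to 0.17 and 0.24 after quantile normalization. On the quantile scale alone, 13 cycle and 21 chain genes were higher, against 28.5% of all genes, and 1 and 2 were lower. The single rise of the cycle list was lost without G609G/G609G replicate 1 or 3 or any wt array, and its single fall without G609G/G609G replicate 2 or any wt array. The chain list had 1 rise without G609G/G609G replicate 1 or 3 or wt replicate 1 or 2, and 4 rises and 1 fall without wt replicate 3. Among 21 brown and beige fat genes, 7 rose and 3 fell, against 10.2% and 29.4% of all genes. Ucp1, the uncoupling protein, had 4.31, 4.21 and 4.04 against 5.68, 5.53 and 5.67 in wt, and Prdm16, a factor of brown and beige fat, fell by 0.73. Ppargc1a, a coactivator of mitochondrial genes, rose by 1.11, and Cox8b, a respiratory subunit of brown fat and muscle, by 2.24.

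The response to fasting, glucocorticoid and FoxO factors was the list outside muscle with the largest share of rises among those described here. FoxO factors are transcription factors that insulin signalling holds out of the nucleus. Of 24 measured genes, 18 rose and 4 fell, against 10.2% and 29.4% of all genes, and the median change was 0.82 (1.18 after quantile normalization). Fbxo32, a ubiquitin ligase of muscle atrophy, had 11.25, 11.22 and 11.27 in G609G/G609G fat and 7.77, 7.70 and 7.92 in wt fat, a 10.9-fold higher signal (log2 change 3.45, SE 0.07, adjusted p = 1.14e-08). Ddit4, an inhibitor of mTORC signalling, rose by 2.56, and Errfi1, a feedback inhibitor of the EGF receptor, by 2.33. Pdk4, which holds pyruvate back from oxidation, rose by 1.51 (SE 0.05, adjusted p = 1.05e-07). Foxo1 itself rose by 0.67. The glucocorticoid targets Tsc22d3 and Fkbp5 rose by 1.28 and 0.87, and Klf15, a glucocorticoid-induced factor, by 1.81. Lcn2, a lipocalin of inflammation, fell by 1.71, Sesn3 fell by 1.48 and Bcl6, a transcriptional repressor, fell by 0.80. Skeletal muscle expresses Fbxo32, Pdk4, Klf15 and Foxo1 as well, and the share of muscle RNA in these rises was not tested.

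Targets of p53, the transcription factor of the DNA damage response, moved in both directions, with more rises than falls. Of 21 measured targets, 7 rose and 3 fell, against 10.2% and 29.4% of all genes. Their median was -0.11, and 0.28 after quantile normalization. On the quantile scale alone, 12 were higher and 3 lower, against 28.5% and 29.5% of all genes. Cdkn1a, the p21 inhibitor of the cell cycle, had 11.27, 11.30 and 11.35 in G609G/G609G fat against 8.56, 8.65 and 8.59 in wt fat (log2 change 2.71, SE 0.05, adjusted p = 6.75e-09). Trp53inp1, a cofactor of p53, rose by 3.05, and Eda2r, a receptor of the tumour necrosis factor family, by 1.33 with 5.85, 5.85 and 5.85 against 4.45, 4.62 and 4.49 in wt. Mdm2, the ligase that degrades p53 and is itself a target, changed by -0.21 as deposited (adjusted p = 0.0491) and by 0.25 after quantile normalization, so it had no settled direction, and its call as deposited was lost without any 1 of 5 of the arrays (changes of -0.24 to -0.15). Phlda3, a target that restrains Akt, fell by 1.35, Perp, a membrane protein of epithelia, fell by 1.05, and Polk, a translesion polymerase, fell by 0.89. The senescence list, of cell cycle inhibitors and secreted factors, had 2 rises (1 without G609G/G609G replicate 2 or 3 or wt replicate 2) and 7 falls among 19 genes. The share that rose was near the 10.2% of all genes, and 29.4% of all genes fell. Igfbp3 led the rises, while Mmp12, a macrophage elastase, fell by 1.69 and Tgfb1 fell by 1.35.

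Genes of the growth hormone, insulin and IGF axis changed at several levels. Of 26 measured genes, 6 rose and 8 fell (median -0.20, and 0.14 after quantile normalization), against 10.2% and 29.4% of all genes. The share that fell was thus near that of all genes. Among receptors, Ghr, the growth hormone receptor, had 11.09, 11.03 and 11.17 in G609G/G609G fat and 12.44, 12.44 and 12.44 in wt fat (-1.34, SE 0.05, adjusted p = 2.83e-07). Socs2, a target and brake of growth hormone signalling, had 11.50, 11.55 and 11.61 against 9.54, 9.50 and 9.46 in wt, a rise of 2.05 (adjusted p = 5.93e-07), so receptor and feedback gene moved in opposite directions. Igf1, the growth factor that growth hormone induces, had 9.25, 9.29 and 9.32 against 9.34, 9.40 and 9.44 in wt (adjusted p = 0.114), and its change was 0.29 after quantile normalization (adjusted p = 0.000662). Among IGF-binding proteins, Igfbp3 rose by 2.74 (SE 0.07), to 10.88, 10.93 and 11.03 against 8.09, 8.24 and 8.28 in wt, and Igfbp5 fell by 1.52. Downstream of the receptors, Grb14, an inhibitor of the insulin receptor, fell by 1.57, and Pik3ip1, an inhibitor of phosphoinositide 3-kinase, rose by 0.91.

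The core clock is a loop in which Arntl, with CLOCK or NPAS2 as partner, activates Per and Cry genes through E-boxes, and the Per and Cry proteins repress that activity. Of 14 measured clock genes, 6 rose and 3 fell (median -0.02, and 0.38 after quantile normalization), against 10.2% and 29.4% of all genes. On the activating side, Arntl had 8.16, 8.18 and 8.37 in G609G/G609G fat against 6.72, 6.62 and 6.92 in wt fat (1.48, SE 0.09, adjusted p = 3.2e-06). Npas2 rose by 2.06, with 9.67, 9.71 and 9.87 against 7.70, 7.66 and 7.71 in wt, while Clock differed by 0.01 as deposited (adjusted p = 0.883) and by 0.41 after quantile normalization. Nfil3, a repressor that binds D-boxes, showed the largest rise of the list at 9.53, 9.51 and 9.68 against 6.06, 6.36 and 6.43 in wt (3.29, adjusted p = 2e-07). Dbp, the activator at the same D-boxes, fell by 0.70 (SE 0.05).

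Repressors of the loop did not move together. Per1 rose by 1.03, with 10.10, 10.08 and 10.14 against 9.07, 9.01 and 9.16 in wt, and Cry1 rose by 0.62 (adjusted p = 0.00197). Per3 fell by 1.48. Bhlhe41, a repressor that competes for E-boxes, had 6.10, 6.13 and 6.17 against 8.39, 8.35 and 8.61 in wt (-2.32, adjusted p = 1.5e-07). The labels give no time of day of collection, so a shift of the clock and a difference in collection time cannot be told apart here.

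An E-box, CACGTG, which reads the same on both strands, was searched in the 250 bases before each gene start of the RefSeq promoter table (GRCm38.p6). It was present for 4 of 13 clock genes with a promoter entry (30.8%), against 1026 of 11894 measured genes with an entry (8.63%). The 3 windows below, with the motif in capitals, are those of the clock genes with a match that were called, Per1 and Cry1 among the rises and Bhlhe41 among the falls. They are the sequence 5' to 3' on the gene's strand: Bhlhe41 at chr6:145865541-145865600 (minus strand, motif 153 bases before the start), Cry1 at chr10:85185082-85185141 (minus strand, 60 bases) and Per1 at chr11:69098756-69098815 (plus strand, 166 bases).
Bhlhe41: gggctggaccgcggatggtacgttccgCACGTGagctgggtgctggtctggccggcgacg
Cry1: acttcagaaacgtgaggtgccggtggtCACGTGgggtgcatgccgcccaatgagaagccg
Per1: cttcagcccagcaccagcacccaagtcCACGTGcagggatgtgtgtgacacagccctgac
Tef, the fourth gene with a match, was not called as deposited (adjusted p = 0.167) and had a change of 0.32 after quantile normalization. The FoxO motif GTAAACA or its reverse complement was present for 1 of 21 fasting-response genes (4.8%), against 3.16% of all genes. A MEF2-like motif, CTA and TAG with any 4 bases between them, which also reads the same on both strands, was present for 0 of 9 fast fibre genes (0.0%) and 1 of 11 genes of Z-discs, titin and triads (9.1%), against 3.71% of all genes. These were the 4 pairs of list and motif searched. A match is a description and shows no binding.

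**Figure D3:**
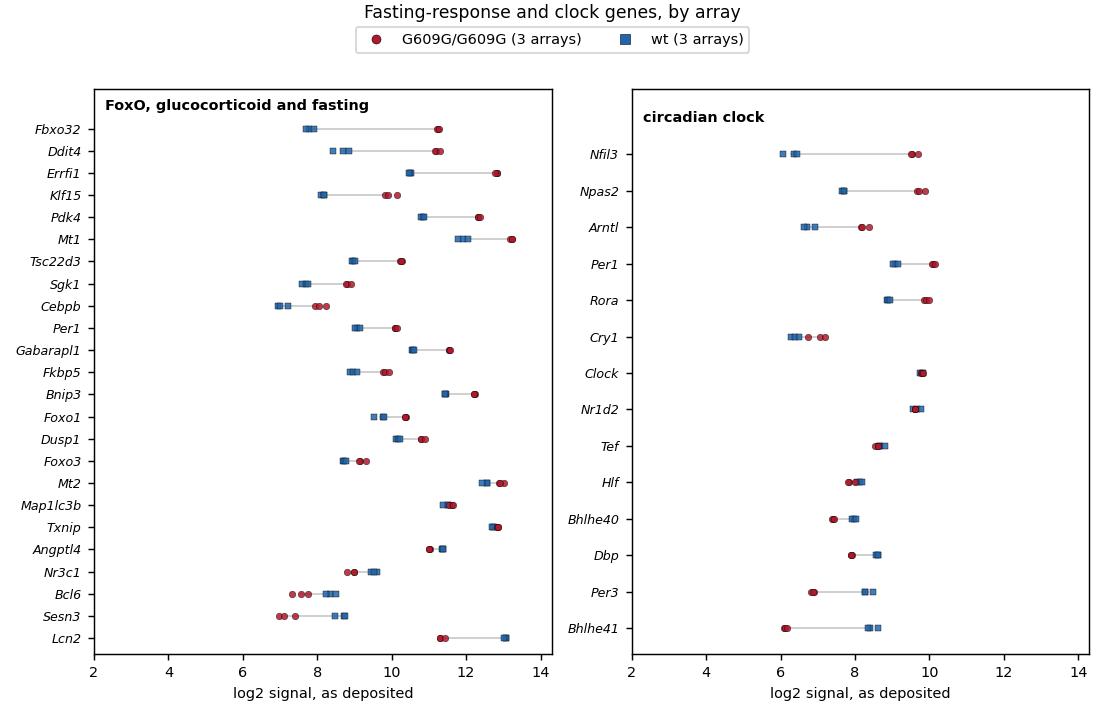
Log2 signal as deposited (x axis) of each measured gene of the fasting-response list (left) and the clock list (right), with the 3 G609G/G609G arrays as red circles and the 3 wt arrays as blue squares, joined by a line between the group means. Genes run down the page from the largest rise to the largest fall. Fbxo32 and Nfil3 head the lists (changes of 3.45 and 3.29), and Lcn2 and Bhlhe41 end them (-1.71 and -2.32).

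Immediate early genes, the first to respond to a stimulus, rose in part. Of 21 measured, 9 rose and 2 fell (median 0.04, and 0.55 after quantile normalization), against 10.2% and 29.4% of all genes. Nr4a3, an orphan nuclear receptor, had 10.44, 10.31 and 10.31 in G609G/G609G fat against 6.32, 6.29 and 6.26 in wt fat (4.06, SE 0.07, adjusted p = 3.52e-09). Its relative Nr4a1 rose by 0.89, and Btg2, an antiproliferative p53 target, by 1.43. Egr2, a zinc finger factor, went the other way with 6.32, 6.10 and 6.21 against 9.40, 9.46 and 9.48 in wt (-3.24, adjusted p = 1.57e-08). Fos, a widely used mark of recent stimulation, had no call on either scale (-0.03, adjusted p = 0.864, and 0.38 after quantile normalization). Egr1 differed by -0.01 as deposited (adjusted p = 0.882) and by 0.53 after quantile normalization.

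Stress and turnover genes moved in both directions, to be read against the 10.2% of all genes that rose and the 29.4% that fell. Of 22 genes of the unfolded protein and ATF4 response, 7 rose and 9 fell. Atf4 rose by 0.78, Chac1, an ATF4 target that breaks down glutathione, by 1.42, and Ppp1r15a, the phosphatase subunit that ends the response, by 1.43. Slc7a11, the cystine importer and also an ATF4 target, fell by 2.26, and the endoplasmic reticulum enzymes Pdia4 and Edem1 fell (-1.70 and -1.20). Of 13 heat shock genes, 6 rose and none fell, led by the small heat shock proteins of muscle Hspb7, Hspb6 and Hspb8 (1.44, 1.16 and 0.94). Of 23 autophagy genes, 8 rose and 3 fell, with Gabarapl1, an autophagosome protein and FoxO target, at 11.55, 11.53 and 11.56 against 10.54, 10.56 and 10.59 in wt (0.98). Retreg1, a receptor for autophagy of the endoplasmic reticulum that was chosen after its values were seen, rose by 3.31. Of 25 antioxidant genes, 4 rose and 9 fell. Gclc, which makes glutathione, rose by 0.78, and Sod3, the extracellular superoxide dismutase, fell by 2.12. Nampt, which makes the precursor of NAD, rose by 1.64 with 11.20, 11.19 and 11.20 against 9.55, 9.57 and 9.55 in wt, while the deacetylases Sirt1 and Sirt6 changed by 0.46 and -0.94.

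The largest rises were in genes of skeletal muscle. All 12 measured fast fibre genes rose (median 6.21), as did 17 of 19 genes of Z-discs, titin and triads (median 3.10) and 15 of 17 of muscle energy metabolism (median 1.25), with no fall in any of the 3 lists. Atp2a1, the calcium pump of fast fibres, had 12.62, 12.56 and 12.67 in G609G/G609G fat against 4.72, 4.78 and 4.72 in wt fat (7.88, SE 0.08, adjusted p = 2.97e-10). Tnnt3 and Tnnc2, troponins of fast fibres, rose by 7.75 and 7.25, and Pvalb, their calcium buffer, by 7.16. Myot, of the Z-disc, rose by 6.29, Ryr1, the calcium release channel, by 5.13, and Cox6a2 and Pygm, the muscle forms of a respiratory subunit and of glycogen phosphorylase, by 5.61 and 5.37. The 3 G609G/G609G arrays held Atp2a1, Tnnt3 and Pvalb at 11.52 to 12.67, and the wt arrays at 4.40 to 4.78.

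Slow fibre genes rose by less and varied more between G609G/G609G arrays. Of 10 measured, 8 rose (median 1.34) and none fell (1 without wt replicate 1). Myl2, the slow regulatory light chain, had 5.73, 6.48 and 6.27 in G609G/G609G fat and 3.20, 3.06 and 3.16 in wt fat, and Mb, myoglobin, 8.52, 8.82 and 9.05 against 5.49, 5.32 and 5.40 in wt. Tnnc1, the troponin C of slow fibres and heart, had 5.51, 6.05 and 5.11 against 3.94, 4.14 and 3.89 in wt (1.57, SE 0.22, adjusted p = 0.000426). Of 8 heart genes none rose (1 without G609G/G609G replicate 2), and Tnnt2, the cardiac troponin T, fell by 0.88. Myl7, a defining marker of atria, was at most 4.5 on any of the 6 arrays.

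Of 16 genes of muscle development and regeneration, 5 rose and 1 fell (median 0.02). Myf6, the myogenic factor of mature fibres, had 7.28, 7.43 and 7.79 in G609G/G609G fat against 3.65, 3.74 and 3.72 in wt fat (3.80, adjusted p = 1.01e-07). Myod1 and Myog, myogenic factors of activated and fusing cells, did not pass, with 4.41, 4.47 and 4.37 against 4.41, 4.42 and 4.11 in wt for Myod1 and 5.20, 4.90 and 4.68 against 5.19, 5.10 and 4.49 in wt for Myog. Pax7, of muscle stem cells, did not pass either (adjusted p = 0.623). Musk, the kinase of the nerve-muscle synapse, rose by 2.26, and Chrna1, an acetylcholine receptor subunit, by 0.94. Outside the muscle lists, Mstn, which encodes the muscle growth inhibitor myostatin, rose by 5.14, and Hjv, a coreceptor for bone morphogenetic proteins in muscle and liver, by 5.0. Klhl38, Tmod4, Ppp1r3a, Asb5, Abra, Cmya5, Klhl31 and Apobec2, all known from striated muscle, rose by 4.21 to 5.85.

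**Figure D4:**
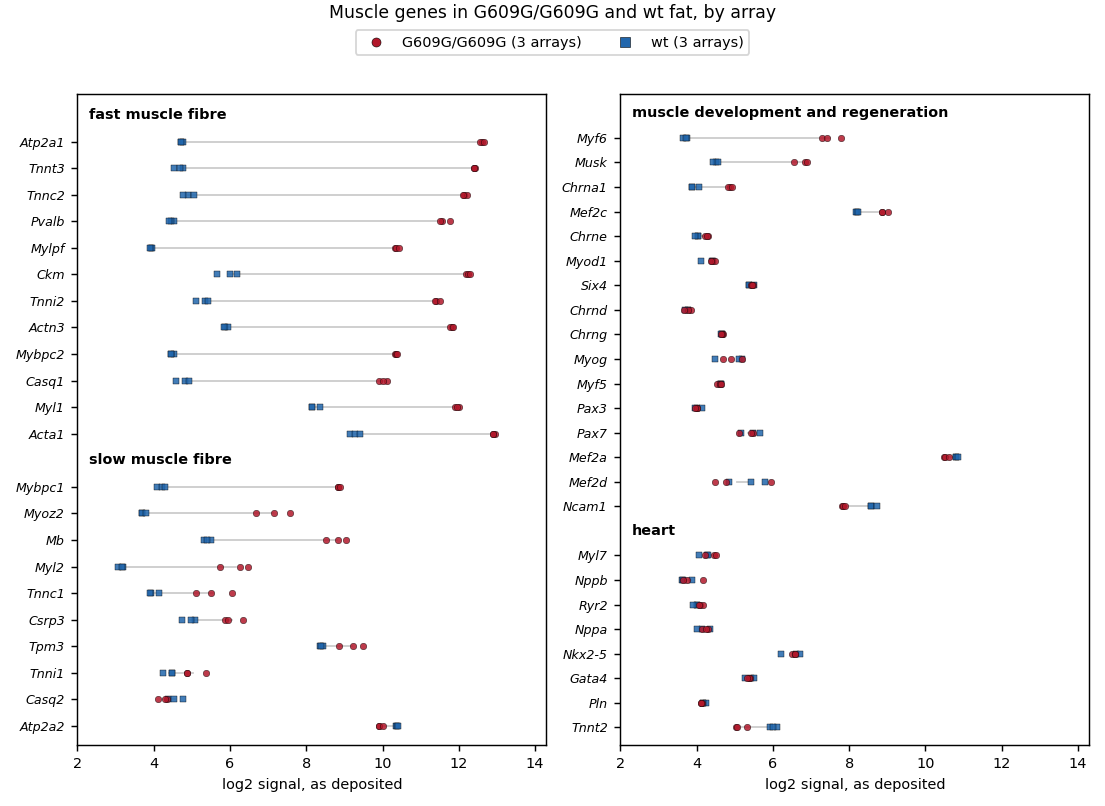
Log2 signal as deposited (x axis) of measured fast and slow fibre genes (left) and of development, regeneration and heart genes (right), with the 3 G609G/G609G arrays as red circles and the 3 wt arrays as blue squares, joined by a line between the group means. Fast fibre genes show the longest lines, up to a change of 7.88 for Atp2a1, and the symbols of Myod1, Myog, Pax7 and most heart genes lie on one another.

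Matrix and stromal genes fell broadly. Of 34 extracellular matrix genes, 25 fell and 1 rose (median -1.09), and of 17 fibroblast and progenitor genes 14 fell and none rose (median -0.92). Col15a1, a basement membrane collagen, had 6.48, 6.34 and 6.01 in G609G/G609G fat against 9.46, 9.46 and 9.48 in wt fat (-3.19, SE 0.11, adjusted p = 1.56e-07). Thbs1, an adhesive glycoprotein, fell by 2.41, Lama4, a laminin chain of the adipocyte basement membrane, fell by 2.16, and Col1a1, the main fibrillar collagen chain, fell by 1.61. Dcn, the proteoglycan decorin, was an exception among fibroblast genes at 13.25, 13.24 and 13.24 against 13.27, 13.25 and 13.27 in wt (adjusted p = 0.727), in a range where signals approach the top of the scale. Timp3, an inhibitor of matrix proteases, rose by 0.39. Fgf10, a growth factor of preadipocytes, had 5.87, 5.88 and 5.78 against 8.15, 8.15 and 8.28 in wt (-2.35), and the progenitor markers Pdgfra and Dpp4 fell (-0.78 and -1.04).

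Of all genes, 29.4% fell and 10.2% rose. Of 30 Wnt pathway genes, 11 fell and 3 rose (1 rise without G609G/G609G replicate 2 and none without wt replicate 3), where Sfrp4, a secreted antagonist, fell by 2.10 and Lef1, a nuclear effector, fell by 1.36. Of 32 genes of the TGF-beta, BMP and activin pathways, 6 fell, a share below that of all genes, and 3 rose, Mstn among them, with a median after quantile normalization of 0.04. Bmp7, a ligand, fell by 1.88, and Ltbp3, which stores TGF-beta in the matrix, fell by 1.68. Tgfbr3, the coreceptor betaglycan, rose by 0.92. Of 10 mesothelial genes, 6 fell and none rose, and Upk1b, a surface protein, fell by 1.64. Smooth muscle and pericyte genes split evenly, with 4 rises and 4 falls among 15. Cnn1 and Myh11, contractile proteins of smooth muscle, rose by 0.90 and 0.62, whereas Mcam, a pericyte and endothelial adhesion protein, fell by 1.64 and Actg2, the enteric actin, fell by 1.42. Of 19 endothelial genes, 4 rose and 1 fell (2 falls without G609G/G609G replicate 3). Leaving out wt replicate 3 gave 5 rises, and leaving out any other 1 array gave 3. As deposited alone, 4 were higher and 9 lower, against 10.5% and 53.5% of all genes. After quantile normalization alone, 12 were higher and 1 lower, against 28.5% and 29.5%. Against LCS/LCS, 1 was higher and 5 lower in both scalings, against 10.9% and 29.3%. The 3 largest rises were those of Emcn, Kdr and Pecam1, by 0.39, 0.34 and 0.30.

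Immune lists differed in how many genes fell, against 29.4% of all genes. Of 18 macrophage genes, 12 fell and none rose (median -1.09). Adgre1, an adhesion receptor that defines mouse macrophages, had 6.69, 6.71 and 7.02 in G609G/G609G fat against 8.76, 8.74 and 8.93 in wt fat (-2.0, SE 0.10, adjusted p = 1.52e-06). Ccr2, the receptor that draws monocytes into tissue, had 5.09, 5.05 and 4.68 against 7.26, 7.40 and 7.27 in wt (-2.37), and Folr2, of resident macrophages, fell by 2.21. Of 10 genes of MHC class II and dendritic cells, 7 fell, and Cd209a, a lectin of dendritic cells, fell by 1.98. Of 20 genes of T, B and NK cells, 5 fell, a share below that of all genes, and 3 of them also after median centring. Of the 5, Ptprc, the common leukocyte antigen, fell by 1.50. Of 19 interferon response genes, 9 fell and 1 rose (median -0.78). Gbp2, a guanylate-binding protein, fell by 1.50 and Irf7, an interferon factor, fell by 1.16, and Mx2 rose by 0.59 at dim signals of 3.95, 4.40 and 4.30 against 3.67, 3.68 and 3.53 in wt. Of 18 cytokine and NF-kB genes, 3 fell and 2 rose, with the acute-phase gene Saa3 at 5.04, 5.35 and 6.27 against 8.31, 8.08 and 8.35 in wt and the NF-kB inhibitor Nfkbia up by 1.23. Only 1 of these 2 rises passed without G609G/G609G replicate 2 or 3 or wt replicate 2. Ptgs2, the inducible cyclooxygenase, was chosen after its values were seen and rose by 1.99, with 10.72, 10.69 and 10.77 against 8.70, 8.71 and 8.80 in wt. Of 13 neutrophil and mast cell genes, 4 rose (2 without G609G/G609G replicate 1) and 2 fell (1 also after median centring), the rises being small or dim, such as S100a9, a calgranulin, at 4.94, 4.91 and 4.91 against 4.15, 4.29 and 3.97 in wt. Complement and clotting genes had 6 falls and 1 rise among 12, where C6 of the membrane attack complex fell by 2.53 and Cfb of the alternative pathway fell by 1.97.

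No gene of the cell cycle or DNA repair lists rose in both scalings. After quantile normalization alone, 3 cell cycle and 8 DNA repair genes were higher, against 28.5% of all genes, and 14 and 12 lower. The list medians on that scale were -0.20 and -0.19. Of 29 cell cycle genes 14 fell, 10 of them also after median centring (median -0.45 as deposited), and of 28 DNA repair genes 12 fell (median -0.62), against 29.4% of all genes. Ccnd1, the cyclin of G1, had 8.01, 7.96 and 8.43 in G609G/G609G fat and 9.55, 9.56 and 9.61 in wt fat (-1.44). Ccnb2, a mitotic cyclin, fell by 1.66. Rad50, of the complex that senses double-strand breaks, had 6.59, 6.64 and 6.73 against 8.10, 8.16 and 8.30 in wt (-1.53, adjusted p = 6.42e-07), and Trp53bp1, which binds such breaks, fell by 1.06. Among housekeeping machines, 3 of 65 mitochondrial ribosome genes rose and 9 fell, and 3 of 33 proteasome genes rose and 5 fell. Of 14 ribosomal protein genes, 2 rose (1 rise on leaving out any array but G609G/G609G replicate 1) and none fell (1 fall without G609G/G609G replicate 3). These shares of calls in both scalings lay below those of all genes in both directions, except for the ribosomal rises. After quantile normalization alone, 30 mitochondrial ribosome, 22 proteasome and 4 ribosomal protein genes were higher, against 28.5% of all genes. On that scale 9, 5 and 0 were lower, against 29.5%.

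Hox genes, which record position along the body axis, had 14 falls and 2 rises among 32 (median -0.62), against 29.4% and 10.2% of all genes. The largest falls were in trunk members: Hoxb8 had 6.56, 6.21 and 6.53 in G609G/G609G fat against 8.51, 8.35 and 8.63 in wt fat (-2.06, adjusted p = 1.53e-06), Hoxb9 fell by 1.95 and Hoxc8 fell by 1.85. Both rises were in more posterior members, Hoxd10 by 0.71 and Hoxc10 by 0.44, at dim signals. Reproductive tract and fat differ in Hox genes by position, and the mean of the epididymal list was 6.43 to 6.61 on the same G609G/G609G arrays against 10.92 to 10.93 in wt. Its part in the Hox changes was not tested.

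Transcripts of the male reproductive tract were the largest falls. Of 17 measured epididymal genes, 15 fell and none rose (median -5.14). Lcn8, an epididymal lipocalin, had 4.08, 4.03 and 4.13 in G609G/G609G fat against 12.83, 12.83 and 12.81 in wt fat (-8.74, SE 0.05, adjusted p = 3.05e-11). Gpx5, the epididymal glutathione peroxidase, had 4.92, 4.98 and 6.31 against 13.42, 13.40 and 13.38 in wt (-8.0, SE 0.32), and 1 of the 3 G609G/G609G arrays was above the other two. Genes outside the list also fell, with changes of -8.49 for Cstdc2, -8.06 for Lypd8, -7.23 for Ly6g5b, -6.99 for the amino acid transporter Slc38a5 and -4.97 for the defensin Defb41.

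Other epididymal genes fell by less or did not pass. Lcn5, another lipocalin, had 11.61, 11.61 and 11.68 in G609G/G609G fat against 13.53, 13.47 and 13.51 in wt fat (-1.87), and Adam7, a membrane protein of the epididymis, 11.13, 11.07 and 11.10 against 12.75, 12.79 and 12.71 (-1.65). Rnase9 fell by 1.75. Defb37, an epididymal defensin, did not pass, with 8.69, 8.75 and 8.91 against 8.48, 8.70 and 8.55 in wt (adjusted p = 0.518). These 4 genes were chosen after their values were seen. Within wt the epididymal genes varied little between arrays, with a median SD of 0.03 against 0.08 over all genes.

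Of 16 testis and sperm genes, 13 fell and none rose (median -1.61). Ldhc, the lactate dehydrogenase of sperm, had 4.74, 4.79 and 4.88 in G609G/G609G fat and 8.21, 8.11 and 8.39 in wt fat (-3.43, adjusted p = 5.56e-08), and Gapdhs, the glycolytic enzyme of the sperm tail, fell by 2.71. Prm1, a protamine that packs sperm DNA, kept 9.34, 9.33 and 9.33 against 11.0, 11.05 and 11.10 in wt (-1.72). Odf1, of the outer dense fibres, passed as deposited (-0.63) but not after quantile normalization (-0.24, adjusted p = 0.0855). Of 8 liver genes 7 fell, mostly at dim signals, and 3 of them also after median centring. Alb, which encodes albumin, had 5.92, 6.22 and 5.67 against 10.04, 9.97 and 10.03 in wt (-4.08, adjusted p = 8.25e-08), and Alas2, of red cell precursors, fell by 1.57. The mean over the 8 liver genes was 4.64 to 4.76 in G609G/G609G, 4.86 to 4.91 in LCS/LCS and 5.7 to 5.88 in wt. Only 1 of these 8 genes was lower in G609G/G609G than in LCS/LCS, and none was higher. Of 3 red cell genes none differed from LCS/LCS.

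**Figure D5:**
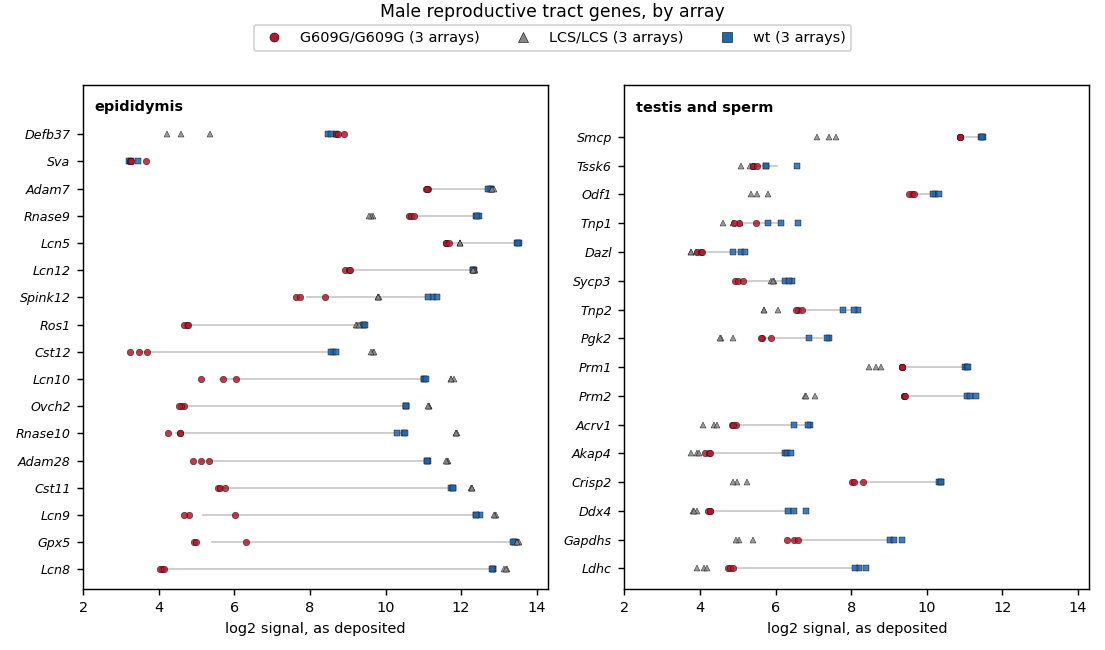
Log2 signal as deposited (x axis) of each measured epididymal gene (left) and testis or sperm gene (right) on the G609G/G609G (red circles), LCS/LCS (grey triangles) and wt (blue squares) arrays, joined by a line between the G609G/G609G and wt means. On the left, LCS/LCS lies near wt for most genes and G609G/G609G far below both for Lcn8 to Cst12. On the right, G609G/G609G lies between LCS/LCS and wt for most genes.

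Whether a level in G609G/G609G fat also differed from that in the other mutant was tested in the same fit. Against LCS/LCS, 1613 genes (10.9%) were higher and 4352 (29.3%) lower in both scalings. Lep had 5.16, 5.34 and 5.45 in G609G/G609G fat and 12.39, 12.40 and 12.31 in LCS/LCS fat (-7.05, SE 0.08, limma adjusted p = 4.29e-10). Cdkn1a differed by 1.62, Nr4a3 by 3.93, Nfil3 by 3.24 and Atp2a1 by 7.66, each higher in G609G/G609G. Lepr differed by 2.62 and Scd3 by 3.71, with 9.99, 9.98 and 9.93 in G609G/G609G against 6.28, 6.15 and 6.34 in LCS/LCS. Ghr, Col15a1, Ccr2 and Dgat2 were lower in G609G/G609G, with differences of -1.56, -3.89, -2.77 and -3.36. Ucp1 did not pass, with 4.31, 4.21 and 4.04 against 4.0, 4.12 and 3.97 in LCS/LCS (adjusted p = 0.158). Both comparisons of G609G/G609G share its arrays, so their values are set side by side and not counted as 2 independent results.

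The lists with tissue markers separated in this comparison. All 12 fast fibre genes were higher in G609G/G609G than in LCS/LCS, with a mean level of 11.62 to 11.69 on the G609G/G609G arrays and 5.79 to 5.92 on the LCS/LCS arrays. Of the epididymal genes 13 were lower and 2 higher, and those 2 were Defb37 and Rnase9. Defb37 had 8.69, 8.75 and 8.91 in G609G/G609G and 4.23, 4.58 and 5.35 in LCS/LCS (4.06, adjusted p = 2.83e-06). Of the 16 testis and sperm genes, 12 were higher and 1 lower in G609G/G609G than in LCS/LCS, whereas 13 were lower than in wt. Crisp2, a sperm protein, had 8.02, 8.06 and 8.32 in G609G/G609G, 4.98, 4.86 and 5.24 in LCS/LCS and 10.32, 10.38 and 10.37 in wt. The mean over these 16 genes was 6.44 to 6.55 in G609G/G609G, 5.25 to 5.38 in LCS/LCS and 8.06 to 8.26 in wt, and the 3 genotypes did not overlap.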

How the data were processed

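RNA of perigonadal white adipose tissue was hybridised to Affymetrix exon arrays summarised to genes, 1 array a sample. The deposited values are taken as log2 signals from their range, for 23332 probe sets and 9 arrays. The genome build is mm9 per the submitters' processing notes, and the background correction, summarisation and scaling are not given in the sources used here. Array medians differed between genotypes. The number of arrays limits the precision.

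Of the probe sets, 14996 had 1 gene symbol in GEO's platform annotation, 1019 had several and 7317 had none listed. The brightest probe set stood for each of 135 genes with several. Genotypes were fitted together on all 9 arrays with limma 3.58.1 in R 4.3.3 (lmFit and eBayes), and p-values were adjusted by Benjamini-Hochberg over all probe sets. The fit was repeated after quantile normalization and after centring each array on its median, with the arrays of the other genotype left out, with trended and robust moderation, without dim probe sets, with the replicate number as a block, without each array, and as the methods' t-test. The fit as deposited was also run on simulated data with few changed probe sets and no shift between array medians. The real arrays differ in both respects, so that run does not test the effect of scaling. G609G/G609G against LCS/LCS after quantile normalization, and list counts without each array in both scalings, were added after seeing the data. Tables and figures were made with Python 3.11.15, pandas 2.3.3 and matplotlib 3.10.9.

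The gene lists, members and tests were chosen with earlier results of these data known, so a list's direction is not independent evidence. Genes were named by a rule: 22 listed genes, of which 19 had a value, the 15 largest changes each way, the 10 largest each way off the muscle and reproductive lists, and up to 3 each way per list. This rule gave 276 genes, and only part of them are described here, a choice made with the values known. The 22 listed genes are named whatever their call, and the rest were called in both scalings with groups that did not overlap. Other genes named were chosen after their values were seen: Abcd2, Adam7, Apoc3, Cebpa, Clock, Crisp2, Cry1, Cst12, Cxcl9, Cyp2b10, Dcn, Defb37, Depp1, Dpp4, Eda2r, Egr1, Fkbp5, Fos, Foxo1, Gadd45g, Hcar1, Hpd, Ido1, Klf15, Lcn5, Lepr, Myl2, Myl7, Myod1, Myog, Odf1, Orm1, Pax7, Pdgfra, Per1, Prm1, Ptgs2, Retreg1, Rnase9, Scd1, Scd2, Slc39a14, Srebf1, Sucnr1, Tef, Tnnc1, Trarg1, Trp53inp2 and Tsc22d3.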

Additional observations from a re-analysis of the deposited data

How the results depend on the processing

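As deposited, 2195 probe sets were higher and 10112 lower in G609G/G609G. The scaling decided this balance: 5785 were higher and 5559 lower after quantile normalization, and 9648 higher and 5010 lower after centring on the median. An added fold minimum of 1.5 left 1074 and 5860, and the methods' t-test with the same minimum 963 and 5687, or 1488 and 8320 after Benjamini-Hochberg with no fold minimum. Leaving out 1 array at a time gave 1779 to 2112 higher and 9169 to 10352 lower. With the replicate number as a block, the counts were 2225 and 10209. The labels do not say that a number pairs samples, and same-numbered arrays deviated together only weakly (correlations of 0.112, 0.08 and 0.23, against -0.168 to 0.09 for other pairs), and wt replicate 2 correlated best with another number. Of the 214 genes named, 198 kept direction and side of the threshold under all 12 settings. Most had been named because they were called in both scalings with groups that did not overlap. Agreement under quantile normalization was thus fixed for them by that choice, and agreement without 1 array was made likely. Of the exceptions, Dgat1 also lost its call under the block (0.13, limma adjusted p = 0.0657). In the limma fit of only the 6 arrays compared, 1861 probe sets were higher and 9357 lower. In that fit Dgat1 (0.13, adjusted p = 0.116) and Mdm2 (-0.21, adjusted p = 0.105) were not called. Counts of called list members, all genes included as a list, moved by over 1.5 times for 30 of 118 as deposited alone, 36 with quantile normalization alone, 54 with median centring alone, 7 with all 3 scalings required, and none with another choice of probe set. Only 135 of 14860 genes had several probe sets, so the last choice could move few counts. Requiring all 3 scalings can only remove calls. Direction turned after quantile normalization for Dcn (0.05), Egr1 (0.53), Fos (0.38), Igf1 (0.29), Lmna (0.06), Mdm2 (0.25), Pax7 (0.18), Pparg (0.23) and Tef (0.32). Direction turned after median centring for Dcn (0.40), Egr1 (0.41), Fos (0.39), Igf1 (0.32), Mdm2 (0.21), Pax7 (0.33), Pparg (0.30), Scd1 (0.14) and Tef (0.32). Leaving out 1 array at a time moved genes with no call across 0: Clock (-0.01 to 0.03), Egr1 (-0.06 to 0.05), Fos (-0.12 to 0.13), Myog (-0.22 to 0.13) and Pax7 (-0.24 to 0.02). Of the genes whose direction turned, Lmna, Mdm2 and Scd1 had been called as deposited. The cause was not tested. Small changes as deposited with no call in both scalings have no settled direction, and dim signals limit the low end of the scale.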

Other observations

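Several large changes fell outside the lists and were chosen after their values were seen. Cyp2b10, a cytochrome best known as a xenobiotic response gene of liver, had 7.99, 8.49 and 8.33 in G609G/G609G fat against 4.60, 4.59 and 4.47 in wt fat, a rise of 3.72. Apoc3, an apolipoprotein that restrains lipoprotein lipase, rose by 3.08 (10.53, 10.62 and 10.71 against 7.53, 7.54 and 7.55 in wt), and Hpd, an enzyme of tyrosine breakdown, by 3.0. Liver expresses these genes too, and Alb, the defining liver marker, was at 5.92, 6.22 and 5.67 against 10.04, 9.97 and 10.03 in wt. The part of liver RNA in these rises was not tested. Slc39a14, a zinc and iron importer, rose by 3.40, Gadd45g, a stress-response gene, by 3.96, and Depp1, a FoxO target, by 2.63.

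Ido1, which breaks down tryptophan, had 6.63, 6.69 and 7.03 in G609G/G609G fat against 11.31, 11.27 and 11.31 in wt fat (-4.51), and Cxcl9, an interferon-induced chemokine, had 5.51, 5.74 and 5.95 against 9.71, 9.69 and 9.88 in wt (-4.03). Orm1, an acute-phase protein of liver and fat, fell by 3.52. All of these genes passed the limma test in both scalings.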
